A study of Mus musculus with 9 samples.

Results

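The 47 genes described here encode the enzymes of the urea cycle, the mitochondrial ornithine carrier, and the liver enzymes that break down amino acids. They were chosen by gene symbol, and each symbol was read from the transcript cluster with the highest mean over all arrays. In the platform annotation 42 of the 47 symbols had a transcript cluster, 1 each. The other 5 (*Ass1*, *Gls2*, *Glud1*, *Sds* and *Sdsl*) were not analysed here. By role, the 42 measured genes fall into the urea cycle (6), glutamate metabolism and transaminases (4), tyrosine (4), tryptophan (4), serine and glycine (2), methionine and cysteine (8), proline and ornithine (4), histidine (4), branched-chain amino acids (5) and lysine (1).

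The urea cycle runs in hepatocytes and turns the ammonia released from amino acids into urea for excretion. Transaminases move the amino group of one amino acid to a keto acid, which feeds nitrogen into the cycle and leaves a carbon skeleton that the liver can burn or turn into glucose. Glucagon and glucocorticoids are known to raise many of these enzymes in fasting or on a protein-rich diet.

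Livers of male mice were profiled whole on 9 mouse Clariom S arrays, in 3 groups of 3, each array taken as 1 mouse. The first group was C57BL/6JHamSlc-ob/ob mice given VE, which is *Vigna umbellata* (rice bean) extract, by gavage for 42 days at a dose of 100 mg/kg. The second was C57BL/6JHamSlc-ob/ob mice given vehicle for 42 days. The third was C57BL/6JHamSlc-+/+ mice, the wild type, given vehicle for 42 days. Mice of every group were 6 weeks old when obtained, had a week to settle and ate standard chow throughout. The ob/ob mouse carries a germline mutation that removes functional leptin from all cells, so it is a model of obesity through overeating on an ordinary diet. The design compared treated and untreated ob/ob liver with each other and with wild type. All values are log2 signals, and a difference is a log2 change. Whole liver was sampled, so fewer cells of a type and less RNA per cell cannot be told apart. P-values measure the spread between these 9 samples only.

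The arrays had medians between 5.07 and 5.36. Hepatocyte markers such as *Alb* averaged between 18.59 and 19.00 on every array, close to the top of the scale. Agreement was lower for ob/ob vehicle 3 (r of 0.948 and 0.952 to the rest of that group) and for wild-type vehicle 3 (0.955 to each of the rest) than among the other arrays of a group. Those arrays had the narrowest interquartile ranges, 3.26 and 3.01, against 3.36 to 3.85 on the others. Of 48 markers of other cell types, 2 were higher in ob/ob vehicle than in wild-type livers (*Rgs5* and *Fabp4*), and 0 passed the test in either comparison with VE. The 2 are 4.17%, against 2.96% of all clusters called in either direction and 5.67% of the 11100 clusters with the higher mean. In VE, 1.29% of all clusters were called against wild type and 0% against ob/ob vehicle. *Gnmt* lay within 0.5 of the array maximum on all 9 arrays, and *Hpd*, *Mat1a* and *Bhmt* did on at least 1, so that a change upward in these genes has little room on the scale.

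Across the 42 genes 3 passed a Benjamini-Hochberg adjusted p under 0.05 in a comparison. *Gpt2*, the mitochondrial alanine transaminase, was higher in ob/ob livers with either treatment. *Agxt*, which turns glyoxylate and alanine into glycine and pyruvate, and *Ftcd*, which ends histidine breakdown by passing a formimino group to folate, were lower in ob/ob vehicle livers than in wild type. The sequences before their start sites are shown because these genes carry the results. They are the 250 bases before the annotated start from RefSeq for build GRCm38.p6, on the plus strand, 5′ to 3′, for *Gpt2* at chr8:85492326-85492575, *Agxt* at chr1:93134990-93135239 and *Ftcd* at chr10:76575398-76575647. Capitals mark the motifs found among 5 searched on both strands: the TATA box TATAAA, the CCAAT box, the C/EBP core TTGCNNAA, the CREB half-site TGACG and the nuclear receptor half-site AGGTCA.
Gpt2: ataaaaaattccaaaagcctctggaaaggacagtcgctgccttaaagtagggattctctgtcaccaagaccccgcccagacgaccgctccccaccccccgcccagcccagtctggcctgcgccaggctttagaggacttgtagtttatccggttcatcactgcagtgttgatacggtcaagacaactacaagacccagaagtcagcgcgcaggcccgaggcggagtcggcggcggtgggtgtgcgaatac
Agxt: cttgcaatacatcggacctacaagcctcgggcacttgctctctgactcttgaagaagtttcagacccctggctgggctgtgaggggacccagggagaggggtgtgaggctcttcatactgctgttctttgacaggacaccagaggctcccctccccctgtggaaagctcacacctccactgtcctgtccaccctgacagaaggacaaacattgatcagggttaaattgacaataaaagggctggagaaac
Ftcd: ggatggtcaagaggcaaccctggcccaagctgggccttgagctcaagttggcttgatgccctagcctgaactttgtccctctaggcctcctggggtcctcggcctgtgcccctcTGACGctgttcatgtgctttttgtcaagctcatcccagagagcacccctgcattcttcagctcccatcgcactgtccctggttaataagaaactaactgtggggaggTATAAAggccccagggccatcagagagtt

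The *Ftcd* sequence held TGACG with its first base 136 bases before the start and TATAAA 29 bases before it. The *Gpt2* and *Agxt* sequences held 0 of the 5 motifs. RefSeq sequences that were searched matched 34 of the 42 genes through 37 start sites. The search left out sequences shorter than 250 bases and a chromosome, that of *Cdo1*. AGGTCA stood before 35.1% of the 37 sites and before 14.0% of the 32851 sites searched, and the genes with it were *Nags*, *Got1*, *Got2*, *Hgd*, *Tdo2*, *Haao*, *Gnmt*, *Ahcy*, *Bhmt*, *Prodh2*, *Uroc1*, *Bckdhb* and *Aass*. CCAAT stood before 54.1% of the 37 sites and 33.8% of the sites searched, TGACG before 8.11% and 17.8%, TATAAA before 13.5% and 12.4%, and TTGCNNAA before 10.8% and 9.56%. These are matches of letters, and the capitals show no bound factor.

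In ob/ob vehicle against wild-type vehicle livers, 1 of the 42 genes was called higher and 2 were called lower, with limma and a Benjamini-Hochberg adjustment over all 22206 clusters. Of all clusters, 2.28% were called higher and 0.680% lower. At the criterion that the submitters state, p under 0.05 before adjustment and more than 1.1-fold on the linear scale, 10 genes were higher and 5 lower (35.7%), against 17.0% of all clusters and 27.2% of the 11100 clusters with the higher mean. The groups did not overlap in 14 genes (33.3%), 7 in each direction, against 19.5% of all clusters and 26.1% of the 11100 brighter ones. The change was above 0 in 26 genes and below 0 in 16, with a median of 0.24, against -0.06 over all clusters and 0.13 over the brighter 11100. The share above 0 was 61.9%, against 44.2% of all clusters and 57.4% of the brighter ones. The 95% interval of a gene's change reached a median of 0.92 to either side, against 0.70 over all clusters. When the pair of arrays that stood apart was left out, *Got2*, *Gpt2*, *Gldc* and *Uroc1* were called higher (4 genes, beside 5.71% of all clusters) and *Agxt* and *Ftcd* lower (2 genes, beside 2.15%). When ob/ob vehicle 3 alone was left out, *Kmo* and *Bckdhb* joined the higher genes (6 genes, beside 6.08%).

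In ob/ob VE against wild-type vehicle livers, 1 gene was called higher and 0 lower, against 0.977% and 0.315% of all clusters. At the submitters' criterion 11 genes were higher and 4 lower (35.7%), against 14.0% of all clusters and 20.7% of the brighter 11100. Groups did not overlap in 13 genes, 7 higher and 6 lower (31.0%), against 21.7% of all clusters and 27.7% of the brighter ones. Changes ran between -2.11 and 2.68, with a median of 0.38, against -0.05 over all clusters and 0.12 over the brighter ones. The share above 0 was 59.5%, against 45.7% and 58.8%. With the pair of arrays that stood apart left out, *Gpt2* was again the 1 gene called. Each of the 3 comparisons shares a group of arrays with each of the others, so likeness between them is no separate evidence.

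In ob/ob VE against ob/ob vehicle livers, limma called 0 of the 42 genes and 0% of all clusters, and the smallest adjusted p among the genes was 0.741. The criterion took 2 genes, *Asl* and *Ftcd*, both higher (4.76%), against 6.45% of all clusters. Groups did not overlap in 2 genes, *Ftcd* and *Bhmt* (4.76%), against 13.6% of all clusters. Of the brighter 11100 clusters, 8.86% met the criterion and 15% did not overlap. Each share of the 42 rests on 2 genes and is not read as a difference from the background. The changes lay between -0.92 and 1.59, 20 above 0 and 22 below, with a median of -0.04, against -0.01 over all clusters. Leaving out the pair of arrays that stood apart also gave 0 calls among the 42.

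**Figure D1:**
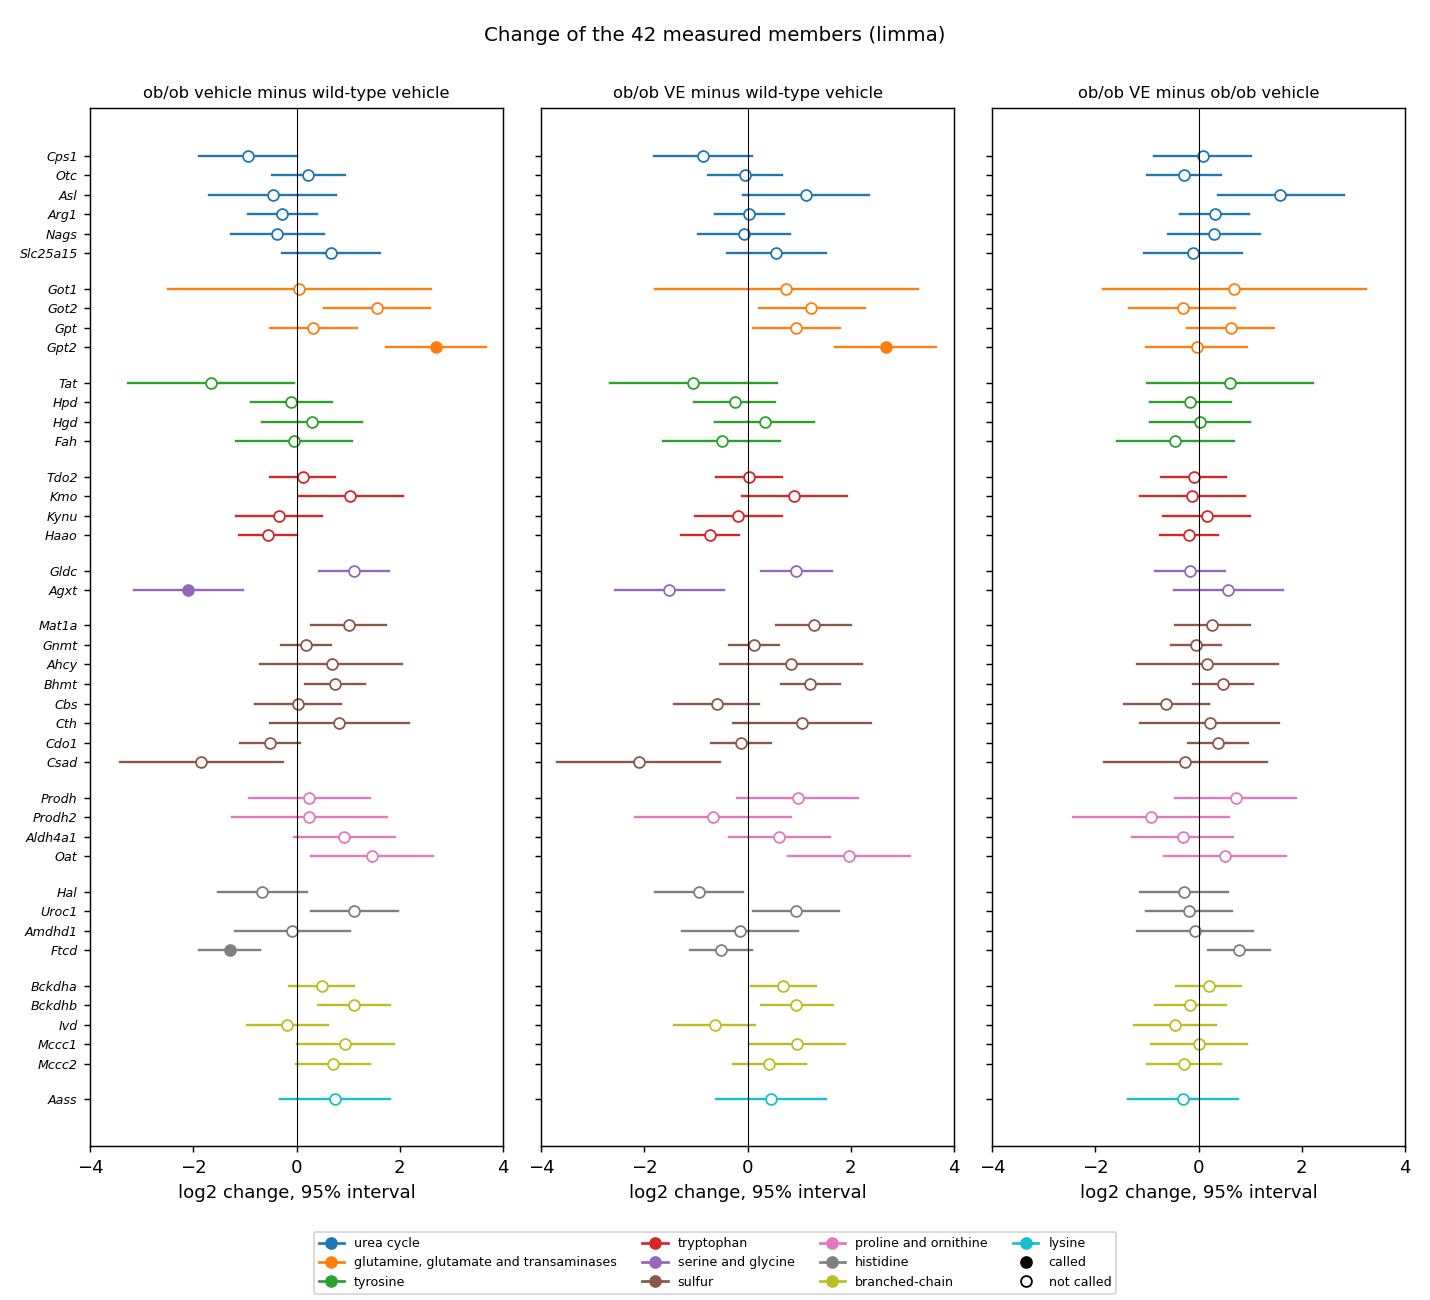
Change of each of the 42 genes (log2, point) with its 95% interval (line) in ob/ob vehicle minus wild-type vehicle, ob/ob VE minus wild-type vehicle and ob/ob VE minus ob/ob vehicle, coloured by role, with filled points for adjusted p under 0.05. Filled points are *Gpt2* (2.71), *Agxt* (-2.10) and *Ftcd* (-1.30) in the left panel and *Gpt2* (2.68) in the middle one, and the right panel has 0.

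Nitrogen enters the urea cycle through glutamate and the transaminases, where the smallest adjusted p of the 42 genes lay. *Gpt2* had 14.93, 14.86 and 14.67 in ob/ob VE livers, 15.57, 14.69 and 14.30 in ob/ob vehicle livers, and 12.91, 12.32 and 11.20 in wild-type livers. All 6 ob/ob arrays lay above all 3 wild-type arrays, and the VE and vehicle ranges overlapped. *Gpt2* was 6.54-fold higher in ob/ob vehicle than in wild-type livers (log2 change 2.71, SE 0.44, adjusted p 0.0122) and 6.39-fold higher in ob/ob VE livers (2.68, SE 0.44, adjusted p 0.0166). Between VE and vehicle the difference was -0.03, with a 95% interval of -1.01 to 0.94. The call in ob/ob vehicle livers did not hold without ob/ob vehicle 1 (adjusted p 0.0516), without wild-type vehicle 2 (0.0544) or with only those groups fitted (0.0582). The call in VE livers did not hold without VE 1 (0.0791), VE 2 (0.0998), VE 3 (0.0552) or wild-type vehicle 2 (0.0703). In all of these fits the change stayed at 2.35 or more. Over all 20 alternatives, with those that kept the call, it ran from 2.00 to 3.09 in ob/ob vehicle and from 2.09 to 3.06 in VE livers.

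The other 3 measured genes of the glutamate and transaminase group did not pass the test. *Gpt*, the cytosolic alanine transaminase, had 12.80, 13.56 and 13.56 in ob/ob VE, 12.92, 12.56 and 12.56 in ob/ob vehicle and 12.85, 12.74 and 11.48 in wild-type livers, and the groups overlapped. Its change in VE livers was 0.95 against wild type (adjusted p 0.297) and 0.63 against ob/ob vehicle (SE 0.38, adjusted p 0.826). *Got2*, the mitochondrial aspartate transaminase, met the criterion in both ob/ob groups, with 1.24 in VE livers (adjusted p 0.260) and 1.56 in vehicle livers (0.111). *Got1*, its cytosolic counterpart, was the most variable of the 42 genes, with 9.33, 11.98 and 14.52 in VE livers and a SD of 2.60 there.

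**Figure D2:**
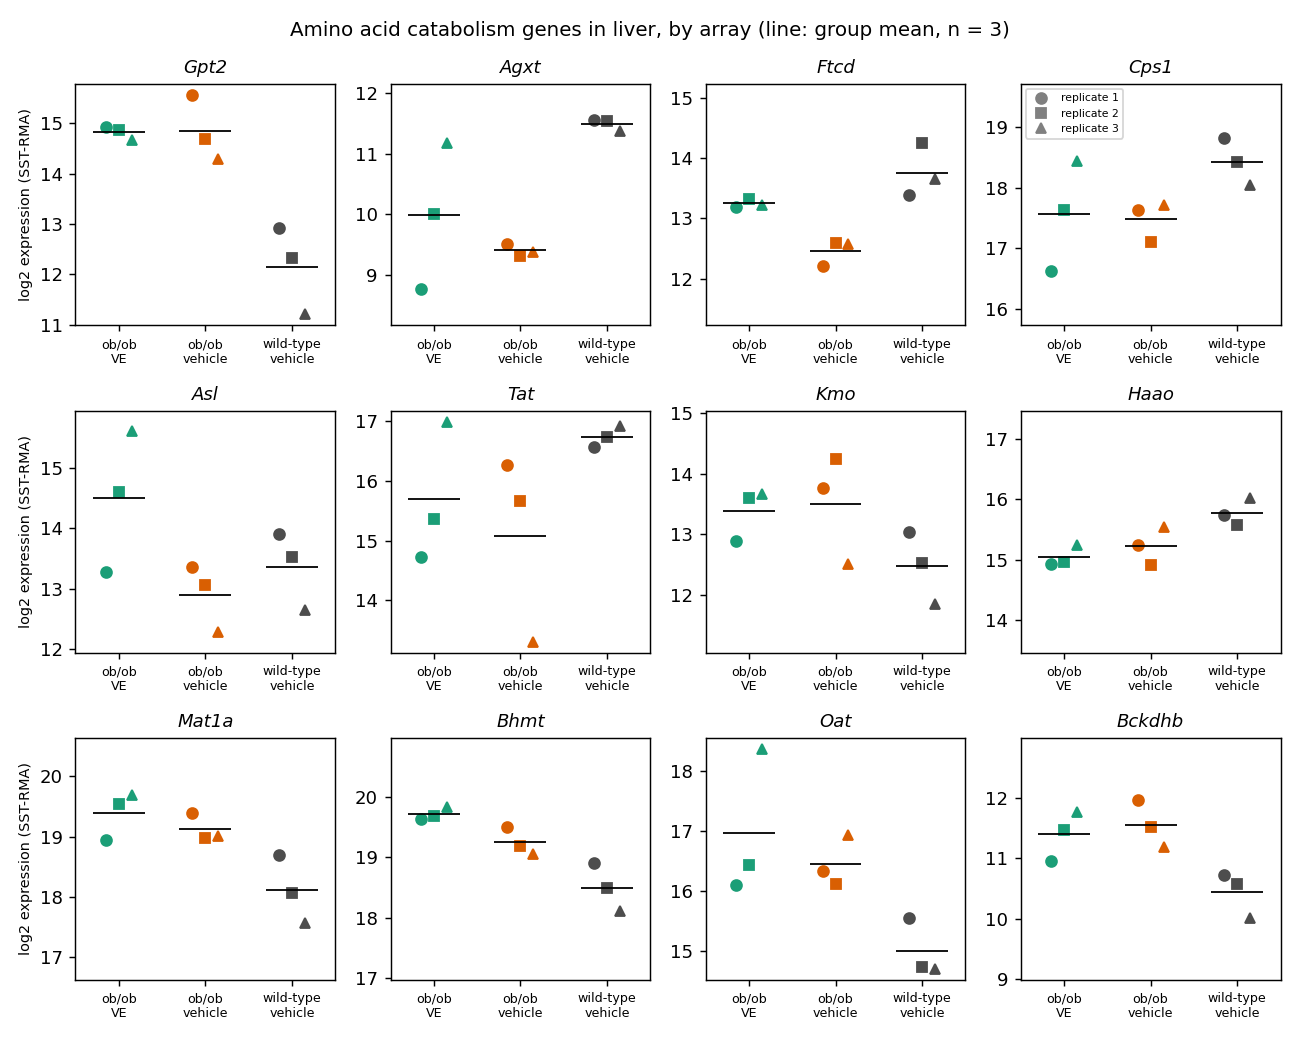
Log2 signal of 12 genes on each of the 9 arrays, with ob/ob VE, ob/ob vehicle and wild-type vehicle side by side, a marker shape for each replicate number and a line at each group mean. All ob/ob arrays of *Gpt2* lie above the wild-type arrays, all wild-type arrays of *Agxt* lie above the ob/ob vehicle arrays, and VE 3 stands high in *Asl*, *Tat* and *Oat*.

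Within the urea cycle itself 0 of 6 genes passed the test in any comparison. *Cps1*, the carbamoyl phosphate synthetase that commits ammonia to the cycle, had 16.62, 17.64 and 18.44 in ob/ob VE livers, 17.64, 17.10 and 17.72 in ob/ob vehicle livers and 18.83, 18.43 and 18.04 in wild-type livers. The ob/ob vehicle arrays all lay under the wild-type arrays, and the VE arrays spread across both. The change was -0.95 in ob/ob vehicle against wild type (SE 0.43, adjusted p 0.293) and -0.87 in VE livers (adjusted p 0.400). *Asl*, which splits argininosuccinate into arginine and fumarate, had 13.28, 14.60 and 15.60 in VE livers, 13.36, 13.06 and 12.28 in ob/ob vehicle livers and 13.91, 13.52 and 12.65 in wild-type livers. The highest 2 values were VE 2 and VE 3, and VE 1 lay among the vehicle arrays. *Asl* had the largest VE difference of the 42 genes, 1.59 over ob/ob vehicle (SE 0.55, unadjusted p 0.0158, adjusted p 0.741), and 1.13 over wild type (adjusted p 0.397). The difference from ob/ob vehicle was 1.04 without VE 3 and 2.20 without VE 1. *Otc*, which makes citrulline, *Arg1*, which releases urea, *Nags*, which makes the activator of Cps1, and the ornithine carrier *Slc25a15* had changes between -0.37 and 0.67 in ob/ob vehicle against wild type and between -0.07 and 0.56 in VE against wild type.

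Tyrosine breakdown starts with *Tat*, tyrosine transaminase, a classic glucocorticoid target. It had 14.73, 15.36 and 16.99 in ob/ob VE livers, 16.27, 15.66 and 13.31 in ob/ob vehicle livers, and 16.57, 16.73 and 16.92 in wild-type livers. The wild-type arrays differed by less than 0.5, while the ob/ob groups spread widely, with SDs of 1.17 (VE) and 1.56 (vehicle) against 0.18. All ob/ob vehicle arrays were below wild type and the VE arrays overlapped it. The change was -1.66 in ob/ob vehicle against wild type (SE 0.73, adjusted p 0.278) and -1.05 in VE (adjusted p 0.551). With each array's interquartile range as a covariate the ob/ob vehicle change was -2.84 and passed the test (adjusted p 0.0351), whereas without ob/ob vehicle 3 it was -0.78 (adjusted p 0.416). The later enzymes *Hpd*, *Hgd* and *Fah*, whose last step gives fumarate and acetoacetate, had changes between -0.10 and 0.30 in ob/ob vehicle against wild type and between -0.50 and 0.33 in VE.

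Of the 4 genes of the kynurenine pathway of tryptophan, 0 passed the test. *Kmo*, which hydroxylates kynurenine, had 12.88, 13.59 and 13.67 in VE livers, 13.76, 14.24 and 12.51 in ob/ob vehicle livers and 13.03, 12.53 and 11.84 in wild-type livers. Ob/ob vehicle 3 lay in the wild-type range and the other ob/ob vehicle arrays lay above it. Its change in ob/ob vehicle against wild type was 1.04 (adjusted p 0.287), and without ob/ob vehicle 3 it was 1.53 and passed the test (adjusted p 0.0380), as it did with array weights (1.37, adjusted p 0.0323). With the interquartile range in the model it was 0.08 (adjusted p 0.924), and without ob/ob vehicle 2 it was 0.67 (adjusted p 0.617). *Haao*, which opens the ring of hydroxyanthranilate on the way to NAD, had 14.93, 14.97 and 15.25 in VE, 15.24, 14.91 and 15.54 in ob/ob vehicle and 15.74, 15.58 and 16.02 in wild-type livers. Every ob/ob array was below every wild-type array, with a change of -0.73 in VE (SE 0.25, adjusted p 0.222) and -0.55 in vehicle livers (adjusted p 0.303). *Tdo2*, the first enzyme, and *Kynu*, kynureninase, had changes between -0.34 and 0.12 in these comparisons.

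*Agxt* had 8.76, 10.01 and 11.17 in ob/ob VE livers, 9.50, 9.31 and 9.38 in ob/ob vehicle livers and 11.56, 11.55 and 11.38 in wild-type livers. Wild-type and ob/ob vehicle arrays each stayed within a SD of 0.10, and the VE arrays ran from below the vehicle range to just under wild type, with a SD of 1.21. *Agxt* was 4.29-fold lower in ob/ob vehicle than in wild-type livers (log2 change -2.10, SE 0.48, adjusted p 0.0456). In VE livers it was -1.52 against wild type (adjusted p 0.187) and 0.58 against ob/ob vehicle, with a 95% interval of -0.48 to 1.64. The SE comes from a spread shared by all 3 groups, to which the VE arrays contributed most for this gene. Same-numbered ob/ob vehicle and wild-type arrays deviated together, and with the replicate number as a block the adjusted p was 0.0532, leaving 1 gene called lower in place of 2. The call was also lost with array medians subtracted (0.0683) and on leaving out ob/ob vehicle 1 (0.132) or 2 (0.143), wild-type vehicle 1 (0.0829), 2 (0.152) or 3 (0.108), or VE 2 (0.0845). Without VE 3 the VE change was -2.11 and passed the test (adjusted p 0.0388), and without VE 1 it was -0.91 (adjusted p 0.353). *Gldc*, the decarboxylase of the glycine cleavage system, met the criterion in both ob/ob groups, 0.95 in VE livers (adjusted p 0.197) and 1.11 in vehicle livers (0.0883), with no overlap with wild type in either.

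The methionine and cysteine group held 8 genes, and 0 of them passed the test. *Bhmt*, which remakes methionine from homocysteine with betaine, came nearest: it had 19.64, 19.69 and 19.83 in VE livers, 19.50, 19.19 and 19.06 in ob/ob vehicle livers and 18.90, 18.49 and 18.12 in wild-type livers. The 3 groups did not overlap at all, with VE highest and wild type lowest. Its VE change was 1.22 against wild type (SE 0.26, adjusted p 0.0549) and 0.47 against ob/ob vehicle (SE 0.26, adjusted p 0.810), and ob/ob vehicle was 0.75 above wild type (adjusted p 0.168). The VE change against wild type passed the test with quantile normalization (adjusted p 0.0446), with array weights (0.0205), without the dimmest 50% of clusters (0.0449), without ob/ob vehicle 3 (0.0350) and without wild-type vehicle 1 (0.0348). In the other 15 of 20 alternatives it did not pass, with an adjusted p of up to 0.212. Over all 20 the change ran from 0.96 to 1.42.

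*Mat1a*, the liver methionine adenosyltransferase, had 18.95, 19.54 and 19.69 in VE livers, 19.39, 18.97 and 19.01 in ob/ob vehicle livers and 18.69, 18.06 and 17.57 in wild-type livers. All ob/ob arrays exceeded all wild-type arrays, by 1.29 on average in VE (SE 0.33, adjusted p 0.105) and by 1.02 in vehicle livers (SE 0.33, adjusted p 0.139). *Cbs*, which joins homocysteine to serine, had 13.36, 14.47 and 14.63 in VE livers, 15.09, 14.72 and 14.53 in ob/ob vehicle livers and 15.28, 14.48 and 14.49 in wild-type livers. VE 1 was more than 1 below every other array, and the VE difference from ob/ob vehicle was -0.63 (SE 0.37, adjusted p 0.826). *Cdo1*, which oxidises cysteine, had 18.56, 19.03 and 19.04 in VE livers, 18.80, 18.10 and 18.59 in ob/ob vehicle livers and 18.97, 18.95 and 19.10 in wild-type livers. Ob/ob vehicle lay below wild type without overlap, and VE exceeded ob/ob vehicle by 0.38 (SE 0.26, adjusted p 0.845). *Csad*, the decarboxylase toward taurine, met the criterion as lower in both ob/ob groups, -2.11 in VE (adjusted p 0.213) and -1.85 in vehicle livers (0.217). *Gnmt*, *Ahcy* and *Cth*, which handle S-adenosylmethionine, S-adenosylhomocysteine and cystathionine, had changes between 0.13 and 1.05 against wild type in both ob/ob groups.

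In the proline and ornithine group *Oat*, ornithine transaminase, had 16.09, 16.43 and 18.36 in VE livers, 16.33, 16.11 and 16.92 in ob/ob vehicle livers and 15.54, 14.73 and 14.70 in wild-type livers. The ob/ob arrays all lay above the wild-type arrays, and VE 3 stood well above the rest. The change was 1.97 in VE against wild type (SE 0.53, adjusted p 0.123; 1.27 without VE 3) and 1.46 in ob/ob vehicle (SE 0.53, adjusted p 0.187). The proline oxidase *Prodh*, its relative *Prodh2*, which acts on hydroxyproline, and *Aldh4a1*, which completes the route to glutamate, had changes between -0.67 and 0.97 against wild type.

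Among the 4 histidine enzymes the terminal one differed. *Ftcd* had 13.19, 13.32 and 13.23 in ob/ob VE livers, 12.21, 12.60 and 12.58 in ob/ob vehicle livers, and 13.39, 14.25 and 13.65 in wild-type livers. The 3 groups did not overlap, with wild type highest and ob/ob vehicle lowest. *Ftcd* was 2.46-fold lower in ob/ob vehicle than in wild-type livers (log2 change -1.30, SE 0.27, adjusted p 0.0327). In VE livers it was 0.78 above ob/ob vehicle (SE 0.27, unadjusted p 0.0149, adjusted p 0.741) and -0.52 against wild type (adjusted p 0.426). The call between ob/ob vehicle and wild type was lost on leaving out ob/ob vehicle 1 (adjusted p 0.132) or 2 (0.0938), wild-type vehicle 2 (0.118) or 3 (0.0771), or VE 1 (0.0555), 2 (0.0657) or 3 (0.0593). Adding each array's interquartile range to the model (0.0631) ended the call too, as did a robust trended prior (0.0702) and a fit of only those groups (0.115).

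*Hal*, the ammonia lyase that starts histidine breakdown, differed by -0.94 in VE (adjusted p 0.310) and -0.66 in ob/ob vehicle livers (0.432), and was called lower in both with each array's interquartile range in the model. *Uroc1*, urocanase, had 13.80, 14.24 and 14.39 in VE livers, 14.68, 14.89 and 13.40 in ob/ob vehicle livers and 13.28, 13.36 and 12.96 in wild-type livers. Its ob/ob arrays all lay above wild type, by 0.94 on average in VE (SE 0.38, adjusted p 0.294) and 1.12 in vehicle livers (adjusted p 0.152). *Amdhd1*, which acts between urocanase and the last step, had -0.15 and -0.08.

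The branched-chain and lysine genes had 0 calls in any comparison. *Bckdhb*, a subunit of the dehydrogenase that commits branched-chain keto acids to oxidation, had 10.96, 11.46 and 11.77 in VE livers, 11.96, 11.51 and 11.19 in ob/ob vehicle livers and 10.73, 10.58 and 10.02 in wild-type livers. Every ob/ob array exceeded every wild-type array, by 0.95 on average in VE (SE 0.31, adjusted p 0.205) and by 1.11 in vehicle livers (SE 0.31, adjusted p 0.0970). The vehicle difference passed the test without ob/ob vehicle 3 (1.29, adjusted p 0.0409) and with array weights (adjusted p 0.0322). It was 0.64 with the interquartile range in the model (adjusted p 0.295) and 0.65 with quantile normalization (adjusted p 0.219). *Bckdha*, its partner subunit, and *Mccc1* and *Mccc2*, the subunits of the leucine pathway's carboxylase, had changes between 0.42 and 0.96 against wild type, and *Ivd*, the dehydrogenase before that carboxylase, -0.64 in VE and -0.18 in vehicle livers. *Aass*, which starts lysine breakdown, had 14.73, 15.54 and 16.73 in VE livers, 15.97, 15.45 and 16.48 in ob/ob vehicle livers and 15.77, 15.01 and 14.88 in wild-type livers. The groups overlapped, and the change was 0.45 in VE (SE 0.48, adjusted p 0.720) and 0.75 in vehicle livers (adjusted p 0.480).

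Replicates within a group differed in many of these genes at once. VE 3 was the highest VE array in 36 of 42 genes and VE 1 the lowest in 37, where over all clusters these arrays were highest in 32.7% and lowest in 35.1%. Among wild-type arrays, array 1 was highest in 33 genes and array 3 lowest in 31 (33.1% and 39.9% over all clusters). Among ob/ob vehicle arrays, array 1 was highest in 28 and array 3 lowest in 24 (30.1% and 37.5% over all clusters). The median deviation of the 42 genes from their own means over 9 arrays was -0.41, 0.15 and 0.60 on VE arrays 1, 2 and 3, then 0.35, 0.03 and -0.21 on the ob/ob vehicle arrays and 0.26, -0.21 and -0.50 on the wild-type arrays, while over all clusters it stayed between -0.05 and 0.01. Interquartile ranges ordered the same way within the VE group (3.48, 3.59 and 3.68) and the wild-type group (3.47, 3.36 and 3.01), and were 3.83, 3.85 and 3.26 in the ob/ob vehicle group. The part of array spread in this pattern was not tested. The SD within a group had a median over the 42 genes of 0.54 (VE), 0.39 (ob/ob vehicle) and 0.40 (wild type), and over all clusters of 0.27, 0.36 and 0.37 in the same order.

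**Figure D3:**
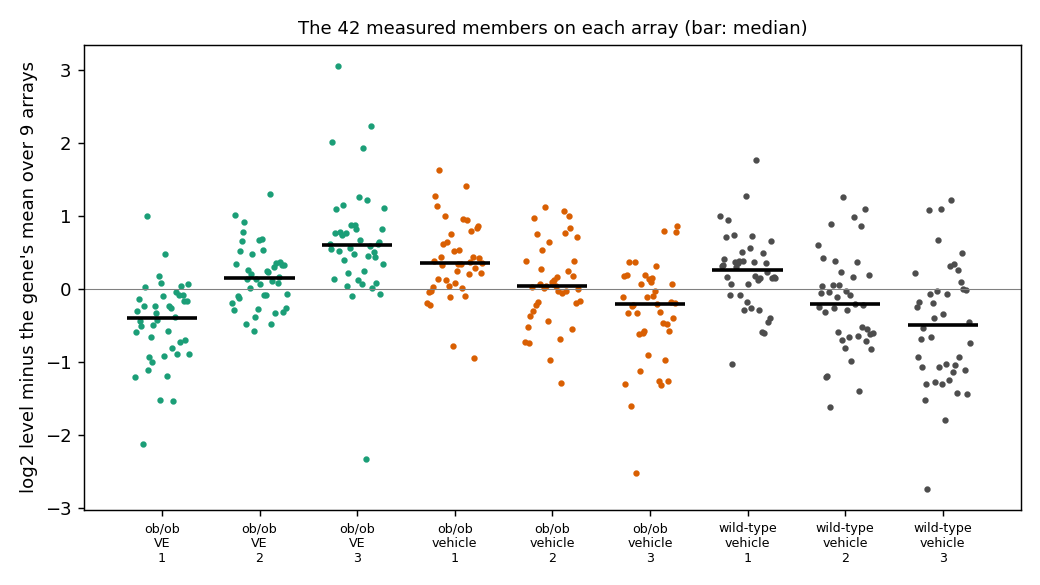
Log2 signal of each of the 42 genes minus its mean over all 9 arrays (points), by array, with the median as a bar. The medians run from -0.41 on VE 1 to 0.60 on VE 3, and in the vehicle groups array 1 has the highest median and array 3 the lowest.

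A further 102 genes of the same pathways were read for context, and 89 were measured. In VE against wild type 3 of 89 were called higher and 2 lower (5.62% in all, against 1.29% of all clusters and 2.50% of the brighter 11100). In ob/ob vehicle against wild type 7 were called higher and 2 lower (10.1%, against 2.96% and 5.67%), and in VE against ob/ob vehicle 0 were. *Kyat1*, a kynurenine transaminase, had 8.87, 9.28 and 9.75 in VE livers, 10.11, 9.94 and 9.46 in ob/ob vehicle livers and 11.64, 12.61 and 12.61 in wild-type livers. No ob/ob array came within 1.5 of a wild-type array. *Kyat1* fell in VE (-2.99, SE 0.35, adjusted p 0.00273) and in vehicle-treated ob/ob livers (-2.45, SE 0.35, adjusted p 0.00601) against wild type, and both calls held in all 20 alternatives run on each.

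Of 13 measured transport genes, 2 passed the test (15.4%), 1 in each direction and in both ob/ob groups. Of all clusters 1.29% passed in VE and 2.96% in ob/ob vehicle against wild type. Of the brighter 11100 clusters 2.50% and 5.67% did. *Slc25a47*, a mitochondrial carrier of liver, had 15.79, 16.58 and 15.21 in VE livers, 16.13, 15.65 and 16.05 in ob/ob vehicle livers and 13.57, 11.91 and 13.78 in wild-type livers. It rose against wild type in VE (2.77, adjusted p 0.0255) and ob/ob vehicle livers (2.86, adjusted p 0.0162). *Slc3a1*, the heavy chain of a cystine and basic amino acid transporter, fell in VE (-2.40, adjusted p 0.0149) and ob/ob vehicle livers (-2.18, adjusted p 0.0171). The VE call of *Slc25a47* was lost without VE 1 (0.0951), VE 2 (0.144) or wild-type vehicle 2 (0.0630), and its vehicle call on leaving out ob/ob vehicle 1 (0.0693) or 2 (0.0508). The VE call of *Slc3a1* was lost without VE 1 (0.0611) or wild-type vehicle 2 (0.0764), and its vehicle call on leaving out ob/ob vehicle 2 (0.0684) or wild-type vehicle 2 (0.0831).

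Asparagine and sulfur enzymes made up most of the other calls. *Asrgl1*, an asparaginase, rose in VE (1.76, adjusted p 0.0167) and ob/ob vehicle livers (1.56, adjusted p 0.0207). *Bhmt2*, a paralog of *Bhmt*, rose in VE (2.36, adjusted p 0.0340) and ob/ob vehicle livers (2.21, adjusted p 0.0308). *Dmgdh*, the next enzyme of betaine breakdown (2.89, adjusted p 0.0422), *Sqor*, which oxidises sulfide (1.65, adjusted p 0.0449), *Odc1*, which turns ornithine into putrescine (1.74, adjusted p 0.0306), and *Pcca*, a propionyl-CoA carboxylase subunit (1.62, adjusted p 0.0308), rose in ob/ob vehicle livers. In VE against wild type their changes were also above 0 but were not called. They were 2.80 for *Dmgdh* (adjusted p 0.0728), 0.75 for *Sqor* (0.411), 1.45 for *Odc1* (0.0893) and 1.45 for *Pcca* (0.0726). Each of the calls was lost when some single arrays were left out. For *Asrgl1* in VE they were VE 1, 2 or 3 or wild-type vehicle 3 (adjusted p 0.0536 to 0.113), and in ob/ob vehicle they were ob/ob vehicle 1 or wild-type vehicle 3 (0.0628 to 0.0966). For *Bhmt2* in VE they were any VE array, ob/ob vehicle 2 or wild-type vehicle 2 or 3 (0.0503 to 0.187), and in ob/ob vehicle they were ob/ob vehicle 1 or 2, wild-type vehicle 2 or 3 or VE 2 or 3 (0.0528 to 0.123). *Dmgdh*, *Sqor*, *Odc1* and *Pcca* each lost the call when VE 2, ob/ob vehicle 1, ob/ob vehicle 2, wild-type vehicle 2 or wild-type vehicle 3 was left out (0.0572 to 0.160), *Odc1* and *Pcca* also without VE 1 (0.0531 and 0.0540), and *Sqor* and *Odc1* also without VE 3 (0.0652 and 0.0557). Among the 19 further branched-chain genes, 17 had a change above 0 in VE against wild type (89.5%, against 45.7% of all clusters and 58.8% of the brighter 11100), with a median of 0.72 and 0 calls. In ob/ob vehicle against wild type 18 did (94.7%, against 44.2% and 57.4%), with a median of 0.96 and 1 call, *Pcca*. That call is 5.26% of the genes, against 2.96% of all clusters and 5.67% of the brighter 11100.

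**Figure D4:**
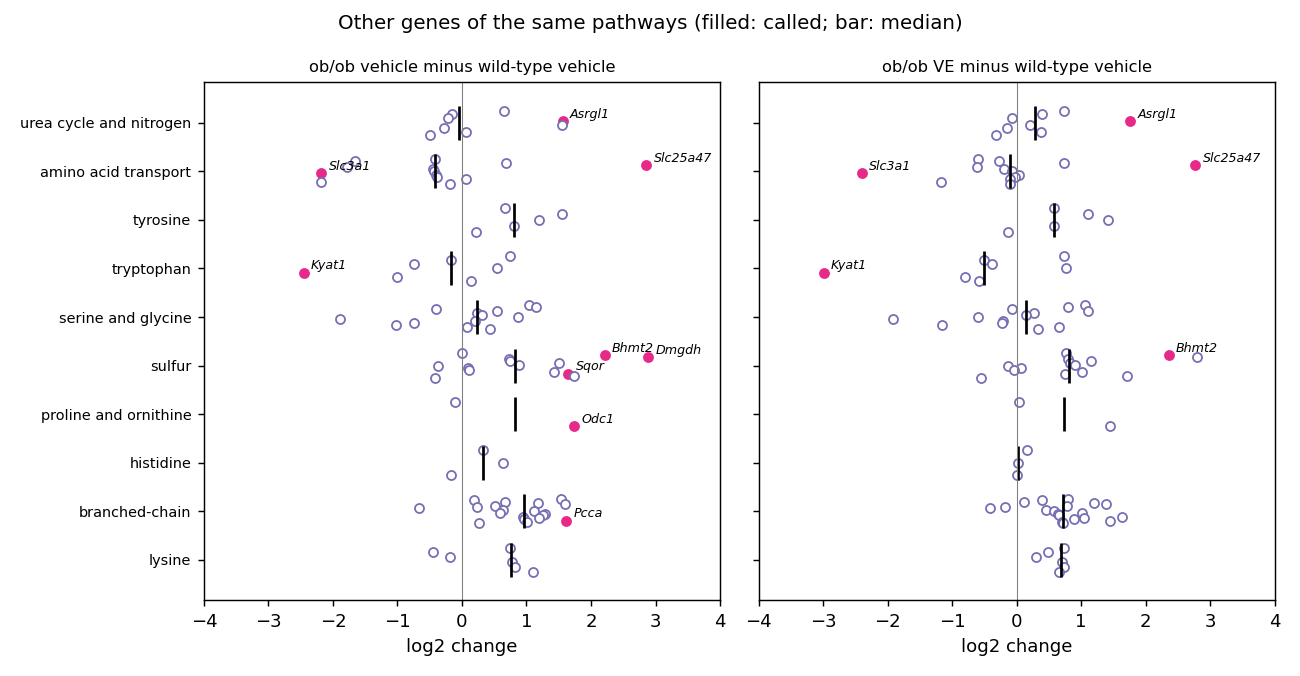
Log2 change of each of the 89 further pathway genes by pathway in ob/ob vehicle minus wild-type vehicle (left) and ob/ob VE minus wild-type vehicle (right), with called genes filled and named and a bar at each pathway's median. *Kyat1* lies lowest in both panels (-2.45 and -2.99), and the branched-chain medians are 0.96 and 0.72.

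Of 14 known regulators of amino acid catabolism, 13 were measured. *Foxo1*, a forkhead factor that insulin signalling restrains, had 8.37, 9.02 and 9.07 in VE livers, 7.72, 7.95 and 7.52 in ob/ob vehicle livers and 7.63, 7.49 and 6.76 in wild-type livers. It was the 1 regulator called, higher in VE than in wild-type livers (1.53, SE 0.31, adjusted p 0.0432). That is 7.69% of the 13, against 1.29% of all clusters and 2.50% of the brighter 11100. All VE arrays lay above all others, but the difference of 1.09 from ob/ob vehicle did not pass the adjustment (SE 0.31, adjusted p 0.707). VE and ob/ob vehicle did not overlap in 13.6% of all clusters. The *Foxo1* call against wild type was lost on leaving out ob/ob vehicle 1 (0.0713) or 2 (0.0691), wild-type vehicle 2 (0.122) or 3 (0.123), or VE 1 (0.0640), 2 (0.208) or 3 (0.167). *Cebpb*, a basic leucine zipper factor of liver, had 7.88, 8.60 and 8.70 in VE livers, 7.09, 7.07 and 6.15 in ob/ob vehicle livers and 7.70, 8.15 and 7.37 in wild-type livers. The VE and ob/ob vehicle arrays did not overlap, but the difference of 1.62 did not pass the adjustment (SE 0.35, unadjusted p 0.00083, adjusted p 0.593). Beside these VE values, 8 of 9 Kupffer cell and macrophage markers were below ob/ob vehicle, with 0 called. So were 7 of 8 sinusoidal endothelial, 5 of 8 stellate cell, 4 of 5 neutrophil and 4 of 7 T, NK and B cell markers. The 1 erythroid marker was below as well. Of the cholangiocyte and the adipocyte markers, 2 of 5 each were below and 3 above. The neutrophil markers averaged 4.31 to 4.90 on VE arrays, under the medians of those arrays (5.07 to 5.18), so their signs are read near the floor. Of all 48 markers of other cell types, 33 were below and 15 above, while 48.4% of all clusters were above. The mean level of the Kupffer cell and macrophage markers was 5.70 to 6.75 on VE arrays, 6.95 to 7.16 on ob/ob vehicle arrays and 6.35 to 6.99 on wild-type arrays. The part of these cell types in the liver gene values was not tested.

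Zonation markers bear on where these enzymes sit, since the urea cycle enzymes are periportal and *Oat* is pericentral. The 6 measured periportal markers, which include *Hal* and *Arg1*, averaged 14.87 to 15.06 on VE arrays, 14.40 to 15.21 on ob/ob vehicle arrays and 15.61 to 15.66 on wild-type arrays. Of these, 1 (*Cdh1*, a cadherin) was called lower than wild type in each ob/ob group, with changes of -4.19 in VE and -4.22 in vehicle livers. That 1 gene is 16.7% of the list, against 0.315% of all clusters called lower in VE and 0.680% in vehicle livers. The changes of the other 5 lay on both sides of 0, between -0.94 and 0.88 in VE and between -0.66 and 0.92 in vehicle livers. The 6 pericentral markers include *Oat*. They averaged 11.93 to 12.86 on VE arrays, 11.57 to 12.10 on ob/ob vehicle arrays and 12.21 to 12.39 on wild-type arrays. Of these markers, 1 (*Cyp1a2*, a cytochrome P450) was called lower in ob/ob vehicle livers (16.7%, against 0.680% of all clusters). The changes of the other 5 lay on both sides of 0, between -1.66 (*Slc1a2*) and 1.46 (*Oat*) in ob/ob vehicle against wild type. In VE against wild type 0 of the 6 were called, and the changes of those 5 lay between -0.37 and 1.97. *Lgr5* and *Axin2* were dim, with no value above 6.65. The part of zonation in the values of the 42 genes was not tested.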

How the data were processed

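The authors deposited log2 values. Per the design text and the submitters' processing notes, SST-RMA in Transcriptome Analysis Console (version 4.0.2) produced them from about 100 ng of RNA per sample. SST-RMA stretches compressed fold changes, so the size of a change depends on it. The submitters' detection filter was not applied, because detection calls were not used here, and some dim genes may be at background. The table held 22206 transcript clusters, 19572 of them with 1 gene symbol in the platform annotation, and RefSeq identifiers updated 0 symbols. The number of arrays limits the precision.

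A linear model over all 9 arrays was fitted in limma (3.58.1, R 4.3.3) with eBayes defaults (6 residual and 4.45 prior degrees of freedom), after the submitters' one-way model with empirical Bayes moderation. Calls need a Benjamini-Hochberg adjusted p below 0.05, taken over every cluster. Folds are 2 raised to the size of the log2 change. The script was tested on simulated data. Values are given in full for called members, for the member of each role group with the smallest p in either comparison with wild type, and for the 6 with the smallest p between VE and ob/ob vehicle. Up to 3 called genes per list are named among other pathway genes and regulators. *Cebpb*, *Got1*, *Got2*, *Gldc*, *Hal*, *Csad*, *Amdhd1*, *Ivd*, *Cdh1*, *Cyp1a2*, *Rgs5* and *Fabp4* were chosen outside that rule, after their values were seen. Members and lists were chosen with earlier results of these data known.

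Titles number the arrays of each group, and no label says what a number marks. Same-numbered ob/ob vehicle and wild-type vehicle arrays deviated together from their group means (correlations 0.256, 0.262 and 0.450), which meets the rule for pairing; VE arrays did not pair with either group. Alternatives were quantile normalization, medians subtracted, array weights, leaving out dim clusters (30% and 50%), the replicate block, the interquartile range as a covariate, a trended robust prior, only the groups compared, leaving out both arrays that stood apart or each array in turn, and the dimmest cluster per symbol.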

Additional observations from a re-analysis of the deposited data

How the results depend on the processing

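Counts of members called are given beside the main count. For ob/ob vehicle against wild-type vehicle, 1 higher call became 6 with array weights (*Got2*, *Gpt2*, *Kmo*, *Gldc*, *Uroc1* and *Bckdhb*; 6.85% of all clusters were then called higher), 4 without both arrays that stand apart (5.71%), 0 with only the groups compared and 10 at the design text's criterion; leaving out 1 array gave 0 to 6, the 6 without ob/ob vehicle 3. The 2 lower calls became 1 with array medians subtracted, 1 with the replicate block, 1 with a robust trended prior, 1 with only the groups compared, 3 with the interquartile range as a covariate (*Tat*, *Agxt* and *Hal*, without *Ftcd*) and 5 at the criterion; leaving out 1 array gave 0 to 2. For VE against ob/ob vehicle, 0 higher calls became 2 at the criterion, and every other setting gave 0 in both directions. For VE against wild-type vehicle, 1 higher call became 2 with quantile normalization, 3 with array weights (*Gpt2*, *Mat1a* and *Bhmt*), 2 without the dimmest 50% of clusters and 11 at the criterion, with 0 to 3 on leaving out 1 array. Its 0 lower calls became 1 with the interquartile range as a covariate (*Hal*) and 4 at the criterion, with 0 to 1 on leaving out 1 array. The cluster with the lowest mean per symbol gave the main counts, since each member had 1 cluster. Over 41 named gene results and 820 alternatives, 704 kept direction and side of the threshold, 104 lost a call, 11 gained one and 1 changed sign: *Aass* in VE against wild type, which ran between -0.09 without VE 3 and 0.91 without VE 1. Only results called in the main fit could lose a call, so the 104 losses come from fewer than 820 alternatives. For members the cluster with the lowest mean is the main cluster, so that alternative could not differ. The 704 are thus no measure of how stable the calls were. Leaving out an array also leaves fewer samples; otherwise the cause was not tested. Replicate numbers did not pair the VE arrays with either vehicle group (correlations between -0.208 and 0.0157), and the replicate block changed no member count there; it ended the calls of *Dmgdh* (adjusted p 0.0650) and *Sqor* (0.0650) in ob/ob vehicle and of *Foxo1* (0.0606) in VE against wild type. With 3 arrays a group, the 95% interval of a member's change reached between 0.49 and 2.55 log2 to either side (median 0.92), which limits how small a difference can be read, and for *Gnmt* the top of the scale limits the reading.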
